A study of Danio rerio with 3 samples.

Results

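The cytosolic ribosomal protein genes were those whose symbol on the array's annotation starts with rpl or rps and a number, or with rplp0 to rplp2, rpsa or fau, leaving out the rps6k kinases. This rule reads names alone, and it found 77 genes among the 15571 measured: 45 of the large and 32 of the small ribosomal subunit. The data came from whole zebrafish embryos of the wild-type strain Ab on 2-colour Agilent arrays. Treated embryos had been kept in 40 µM LY-364947, an inhibitor of the TGF-β receptor 1 kinase, from 8 to 48 hours post fertilisation (hpf), and the untreated embryos were their controls. Each of the 3 treated replicates, made of 10 to 15 embryos, was hybridised on an array of its own against 1 pool of the RNA of 3 untreated replicates, with Cy3 on the treated RNA of replicates 1 and 3 and Cy5 on that of replicate 2.

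The ribosome is built from ribosomal RNA and a fixed set of proteins. The small subunit reads the mRNA, and the large subunit joins amino acids and releases the growing chain through an exit tunnel. Ribosomal proteins are needed in matched amounts, and in vertebrates their mRNAs share a pyrimidine-rich start by which the mTOR pathway controls their translation as a group. Dividing and growing cells make more ribosomes than resting ones, and in zebrafish embryos the loss of single ribosomal proteins is known to cause small heads and anaemia.

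Each value is a log ratio, taken as base 2, between treated and pooled untreated RNA, averaged over the probes of a gene. The sign of the dye-swapped replicate 2 was turned, so that every value runs in the sign of replicates 1 and 3. By the order of names in the sample titles a negative value is lower in LY-364947-treated embryos than in the pool. By the usual Cy5 over Cy3 order of Agilent ratios a negative value is higher in treated embryos than in the pool. The labels do not settle which holds, so genes are placed on the negative or positive side. The pool sits in all 3 ratios, so its own error enters every mean, is left out of the SDs and is not seen by the test. The array medians as deposited lay between -0.0050 and -0.0029, and the file holds ratios only, so expression levels, signal over background and the defining markers of the tissue could not be checked. The number of arrays limits the precision.

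The ribosomal protein genes lay together on the negative side. Of 77 genes, 76 had a mean ratio below 0, and 54 (70.1%) passed an adjusted p of 0.05 there by limma's test with Benjamini-Hochberg adjustment over all genes. Among all 15571 genes, 9.43% passed on the negative side. No ribosomal protein gene passed on the positive side by limma, where 9.92% of all genes did. The median ratio was -0.29, a 1.22-fold difference, beside -0.0013 over all genes. It was -0.30 on replicate 1, -0.34 on replicate 2 and -0.29 on replicate 3, so the arrays gave nearly the same shift. Of the 77 genes, 70 were negative on all 3 arrays (90.9%), against 26.4% of all genes. Without replicate 2 the number passing was 20, where 3.04% of all genes passed on that side, with 76 genes still below 0 and a median of -0.31.

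Read on base 2, a base the labels do not state, the differences were small. The mean ratios ran from -0.54 to 0.10, with 26 genes below -0.4, 30 between -0.4 and -0.2, and 21 above -0.2. Of these genes 0 differed by more than 1.5-fold, a size reached by 2.99% of all genes, and 5 exceeded 1.4-fold. Means varied between the 77 genes with an SD of 0.14, while a single gene varied over the 3 arrays with a median SD of 0.07. In whole-embryo RNA, a difference in the number of cells of a type and a difference in RNA per cell cannot be told apart.

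**Figure D1:**
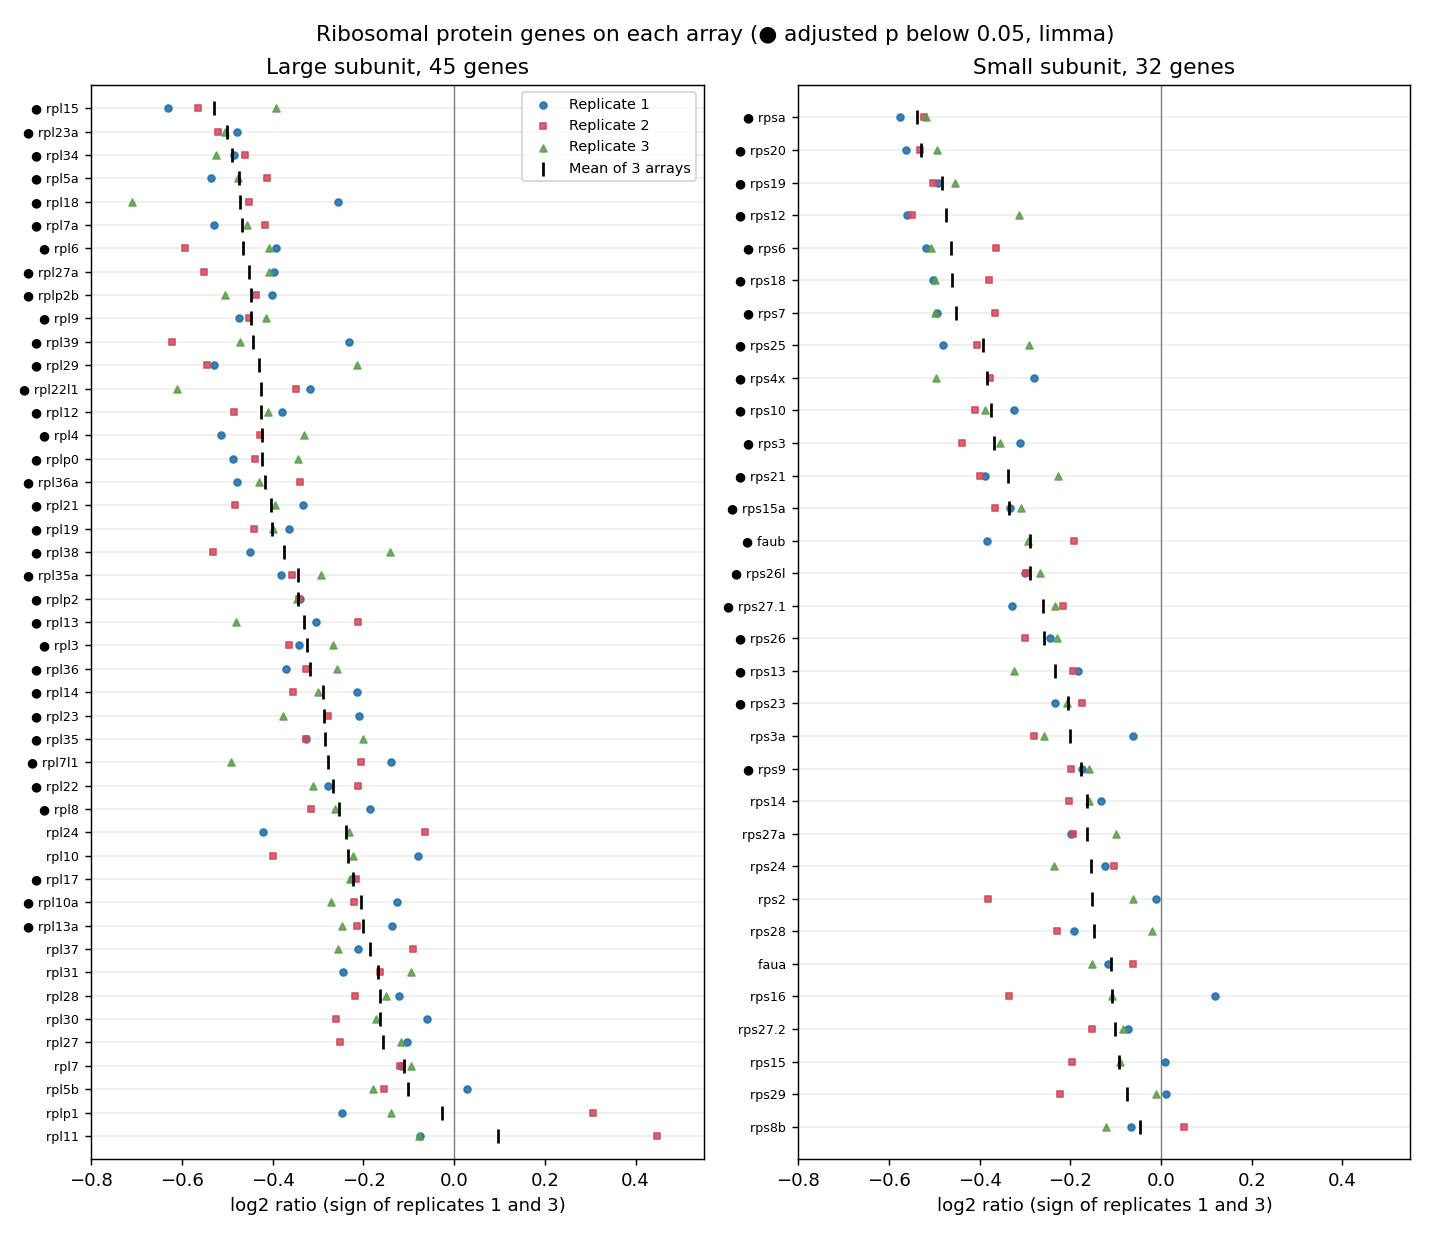
Log2 ratio of each ribosomal protein gene (rows, large subunit left, small subunit right) on the arrays of replicates 1, 2 and 3, with the mean as a black bar and a dot beside the names of genes with an adjusted p below 0.05. Nearly all points lie left of 0, and rpl11 and rplp1 stand apart through their positive values on replicate 2.

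In the small subunit the lowest means over all probes of a gene belonged to rpsa, rps20, rps19 and rps12. With probes of RefSeq mRNA accessions alone, rps7 was the lowest at -0.59. The gene rpsa encodes a protein of the small subunit body, also known as the laminin receptor precursor. It had -0.57, -0.52 and -0.52 on replicates 1, 2 and 3, a mean of -0.54 ± 0.03 (SD, n = 3) and a limma adjusted p of 0.000894. The 3 arrays thus differed far less from each other than from 0. The head protein gene rps20 had -0.56, -0.53 and -0.50 (mean -0.53 ± 0.03, limma adjusted p = 0.000933). The gene rps19, whose human homolog is the one most often mutated in Diamond-Blackfan anaemia, had -0.49, -0.50 and -0.45 (mean -0.48 ± 0.03, limma adjusted p = 0.00127). Another head protein gene, rps12, was less even, with -0.56 and -0.55 on replicates 1 and 2 and -0.31 on replicate 3 (mean -0.47 ± 0.14). The gene rps6, whose protein is phosphorylated by S6 kinase below mTOR, followed at -0.52, -0.36 and -0.51 (mean -0.46 ± 0.09, limma adjusted p = 0.00230).

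In the large subunit rpl15, rpl23a, rpl34 and rpl5a had the lowest means over all probes of a gene. With probes of RefSeq mRNA accessions alone, rpl29 lay between rpl15 and rpl23a, at -0.51. The gene rpl15 had -0.63, -0.57 and -0.39, with replicate 3 the least negative (mean -0.53 ± 0.12, limma adjusted p = 0.00213). The protein of rpl23a sits at the mouth of the exit tunnel, where the signal recognition particle docks. It had -0.48, -0.52 and -0.50, 3 values within 0.05 of each other (mean -0.50 ± 0.02, limma adjusted p = 0.00107). The gene rpl34 was as even, at -0.48, -0.46 and -0.52 (mean -0.49 ± 0.03, limma adjusted p = 0.00124). The gene rpl18 had a mean of the same size but the widest spread of the genes that passed, with -0.26, -0.45 and -0.71 (mean -0.47 ± 0.23, limma adjusted p = 0.0110).

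Set side by side, 34 of the 45 large subunit genes (75.6%) passed on the negative side and 20 of the 32 small subunit genes (62.5%). The share of all genes there was 9.43%. Without replicate 2 the subunit counts were 14 and 6, where 3.04% of all genes passed on that side. The median ratio was -0.33 for the large and -0.26 for the small subunit, a difference, large minus small, of -0.07. Taken array by array, this difference of medians was -0.06, -0.05 and -0.06. The difference was not tested, since no p is given for a score over genes chosen with results known. It moved with the choice of probes. With gene means over probes of RefSeq mRNA accessions alone, an alternative added after the data were seen, the medians were -0.34 for both subunits and the difference was -0.01. The counts were then 37 of 45 and 24 of 32, where 9.71% of all genes measured by such probes passed on the negative side. With 1 probe per gene, taking the lowest identifier, the difference was 0.00094. It was -0.0487 between medians over single probes and -0.0843 with the median over the probes of a gene.

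Within the small subunit, the ratios of the head genes were uneven. Of 12 measured of 14 listed, 7 passed, and these had means between -0.53 and -0.37: rps20, rps19, rps12, rps18, rps25, rps10 and rps3. The remaining 5 (rps27a, rps28, rps16, rps15 and rps29) had means between -0.16 and -0.07 and did not pass. With RefSeq mRNA probes alone, rps27a had -0.43 (limma adjusted p = 0.00385) and rps28 had -0.37 (limma adjusted p = 0.0244), so for these genes it depended on the probes. Of 19 measured body and platform genes, 12 passed (63.2%), against 58.3% of the head genes and 9.43% of all genes on the negative side. With RefSeq mRNA probes alone, the body genes rps24 (-0.34), faua (-0.33) and rps14 (-0.31) passed too, and rps9 did not. Over all probes the median was -0.37 for the head and -0.23 for the body. Their difference, head minus body, was -0.08, -0.18 and -0.07 on the 3 arrays and was not tested.

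At the rim of the exit tunnel ratios ran from -0.50 to -0.17. Of its 6 measured genes, 5 (83.3%) passed on the negative side, against 70.1% of all 77 ribosomal protein genes and 9.43% of all genes. After rpl23a came rpl39 at -0.44 ± 0.20, with -0.23 on replicate 1 and -0.62 on replicate 2, and rpl19 at -0.40 ± 0.04. The genes rpl35 (-0.29 ± 0.07) and rpl17 (-0.22 ± 0.01) had smaller ratios, and rpl31 at -0.17 ± 0.07 did not pass (limma adjusted p = 0.0771). The 2 probes of rpl17 disagreed, at -0.42 and -0.03. With RefSeq mRNA probes alone, rpl17 had -0.42 (limma adjusted p = 0.00300).

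The stalk of the large subunit, which recruits the GTPases of translation, holds the proteins P0, P1 and P2. Its base rplp0 had -0.49, -0.44 and -0.35 (mean -0.42 ± 0.07, limma adjusted p = 0.00282). The gene rplp2 had -0.34, -0.34 and -0.35, the closest agreement among the stalk genes, and its copy rplp2b had -0.40, -0.44 and -0.51. Their partner rplp1 stood apart. It had -0.25 on replicate 1, 0.31 on replicate 2 and -0.14 on replicate 3, so that its mean of -0.03 ± 0.29 did not pass (limma adjusted p = 0.898).

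The particle of 5S ribosomal RNA is formed with the proteins of rpl5 and rpl11, which in mammals also bind the p53 regulator Mdm2 when ribosome assembly fails. The copy rpl5a had -0.54, -0.41 and -0.48 and passed (limma adjusted p = 0.00173). The gene rpl11 was the only member with a mean above 0, at 0.10 ± 0.30 (limma adjusted p = 0.592). Its 3 values were -0.08 on replicate 1, 0.45 on replicate 2 and -0.08 on replicate 3. The means of both rpl11 and rplp1 were thus set by replicate 2, and without it rpl11 had -0.08.

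Replicate 2 is also the array with swapped dyes. In a fit with a dye term, which has 1 residual degree of freedom, rpl11 and rplp1 had the lowest dye coefficients of the 77 genes, -0.26 and -0.25. Dye coefficients over all 77 genes had an SD of 0.07 and a median of 0.01, against an SD of 0.06 over all genes. At the other end stood rps2 (0.17), rps16 (0.17) and rpl39 (0.14). Before the sign of replicate 2 was turned, rpl11 and rplp1 had the same sign on all 3 arrays, so their ratios did not reverse with the dyes. Only replicate 2 was swapped, so a dye effect and another feature of that array cannot be told apart. With the dye term 37 of the 77 genes passed on the negative side, against 4.32% of all genes, and 13 of the 32 small subunit genes.

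**Figure D2:**
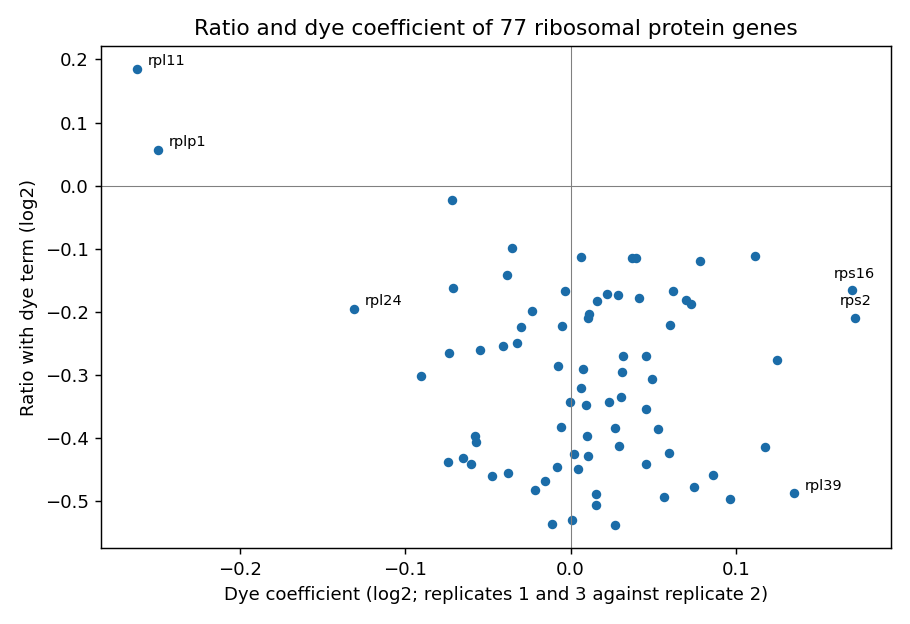
Log2 ratio with a dye term (vertical axis) against the dye coefficient (horizontal axis, log2) for the 77 ribosomal protein genes, 1 point each. Points gather around 0 on the horizontal axis, while the ratios of 75 genes lie below 0, with rpl11 and rplp1 at the upper left.

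Diamond-Blackfan anaemia is a human failure of red cell formation caused by loss of 1 copy of a ribosomal protein gene. The list used here is not a complete set of such genes. Of its 9 zebrafish homologs, with rpl5 as a pair of copies, 6 (66.7%) passed on the negative side. This share was near the 70.1% of all 77 ribosomal protein genes, and 9.43% of all genes passed there. Besides rps19 and rpl5a, the listed homologs that passed were rps7 (-0.45 ± 0.08), rps10 (-0.38 ± 0.04), rpl35a (-0.34 ± 0.05) and rps26 (-0.26 ± 0.04). The listed homologs that did not pass were rps24 at -0.16 ± 0.07 (limma adjusted p = 0.0947), rpl5b and rpl11. With RefSeq mRNA probes alone, rps24 (-0.34, limma adjusted p = 0.00631) and rpl5b (-0.34, limma adjusted p = 0.0124) passed too, and rpl11 did not.

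Some ribosomal proteins are made as fusions. The protein of rps27a is joined to ubiquitin and those of the fau copies to a ubiquitin-like protein, from which they are cut. The gene rps27a had -0.20, -0.19 and -0.10 and did not pass (mean -0.16 ± 0.06, limma adjusted p = 0.0729). The copy faub had -0.38, -0.19 and -0.29 and passed (limma adjusted p = 0.0149), while faua had -0.12, -0.06 and -0.15 and did not (limma adjusted p = 0.191). Both rps27a (-0.43, limma adjusted p = 0.00385) and faua (-0.33, limma adjusted p = 0.00748) passed with RefSeq mRNA probes alone.

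In all, 23 genes did not pass. Of these, 16 were negative on every array: rpl7, rpl10, rpl24, rpl27, rpl28, rpl30, rpl31 and rpl37 of the large subunit, and rps2, rps3a, rps14, rps24, rps27a, rps27.2, rps28 and faua of the small. The other 7 had both signs over the arrays: rpl5b, rpl11, rplp1, rps8b, rps15, rps16 and rps29. Among them rps16 had 0.12, -0.34 and -0.11, and rps29 had 0.01, -0.22 and -0.01, both with the most negative value on replicate 2. The gene rps2, which lies where mRNA enters the small subunit, had -0.38 on that array and -0.01 and -0.06 on the others.

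Many of the smaller mean ratios came from genes whose probes disagreed. The 77 genes had 132 probes, and 38 genes had more than 1. The lowest and highest probe of these 38 genes differed by a median of 0.16 log2 units, and by over 0.3 in 15 genes. The lowest probe of a gene had a median of -0.37 and the highest of -0.12. Of 132 probes, 120 had a mean below 0 and 78 passed on the negative side when all 43603 probes were tested, where 4.91% of probes did. No probe passed on the positive side by limma, where 5.46% of all probes did. The highest of the 12 probes above 0 had 0.13, and the smallest adjusted p among them was 0.247.

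The disagreement followed in part the kind of sequence that the annotation gives for a probe, a split made after the values were seen. Of 104 probes with a RefSeq mRNA accession, 71 passed on the negative side, and their median ratio was -0.34. Of 28 probes with another accession, 7 passed, and their median was -0.07. Over all annotated probes, 7.64% of the 20099 RefSeq probes and 5.28% of the 3618 others passed on the negative side. Of 22 genes with both kinds, the RefSeq probes were lower in 18, and the median difference over the 22 genes, RefSeq minus other, was -0.30.

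The gene rps24 showed the widest range, with 5 probes between -0.64 and 0.11. Its RefSeq probes also disagreed with each other (-0.64 and -0.05), as did those of rps27.2 (-0.27 and 0.05) and rps15 (-0.22 and 0.03). For rps7, the probes of RefSeq accession were between -0.62 and -0.56, while its other probe had -0.04. For rps27a the probes had -0.43 and 0.10, and for rpl5b -0.34 and 0.13. The mean of each of these genes lay between a probe on the negative side and one near 0 or above it. With RefSeq probes alone, 61 of the 77 genes passed on the negative side. Of these, 53 also passed with all probes, and 8 passed with RefSeq probes only: rpl5b, rpl7, rpl28, rps14, rps24, rps27a, rps28 and faua. The gene rps9 passed with all probes only (limma adjusted p = 0.0490 and 0.0532). The genes rplp1 and rpl11 have 1 probe each, so their values were the same in both fits.

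**Figure D3:**
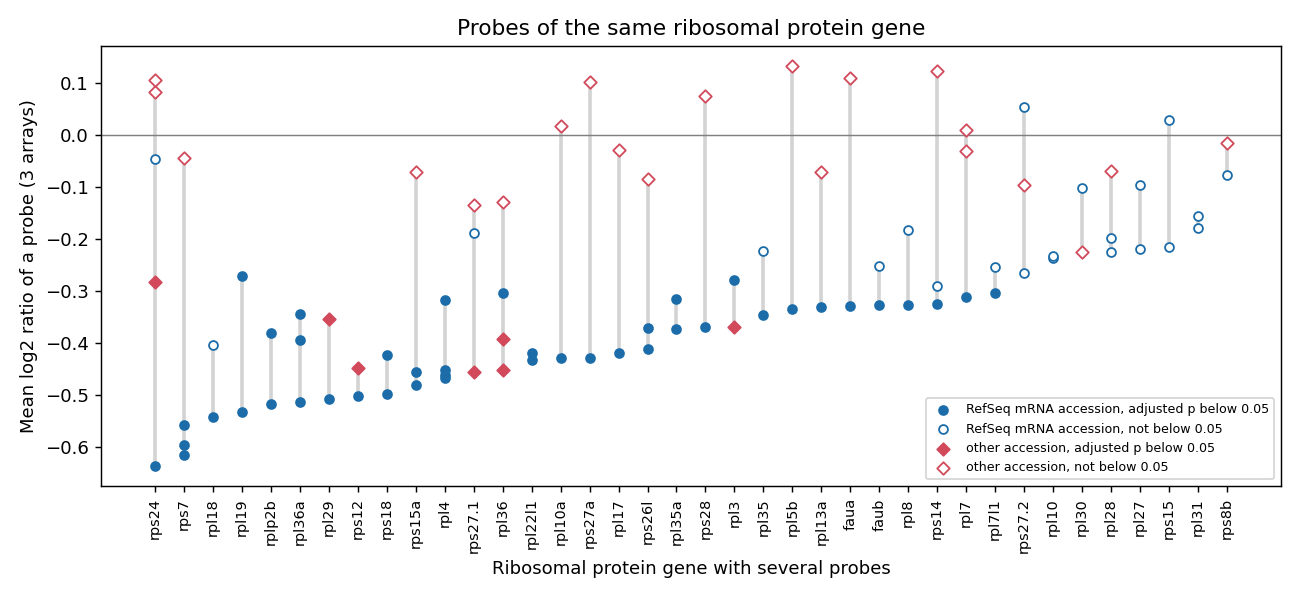
Mean log2 ratio over 3 arrays of each probe (vertical axis) for the 38 ribosomal protein genes with more than 1 probe, ordered by their lowest probe. Circles are probes with a RefSeq mRNA accession and diamonds probes with another accession, filled where the adjusted p over all probes was below 0.05. Most probes near or above 0 are open diamonds.

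Several ribosomal proteins have more than 1 gene in zebrafish, and 7 such pairs were measured. The gene copies share sequence, so a probe of one may also bind RNA of the other. The largest difference within a pair was that of rpl5a and rpl5b, with means of -0.48 and -0.10. Their difference was -0.57, -0.26 and -0.30 on the 3 arrays, but with RefSeq probes alone it shrank to a mean of -0.14 ± 0.18 (SD, n = 3).

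The fau copies went the same way. The copy faub lay below faua by 0.18 in size on average, and above it by 0.04 with RefSeq probes alone. The pair rps27.1 (-0.26 ± 0.06, limma adjusted p = 0.0158) and rps27.2 (-0.10 ± 0.04, limma adjusted p = 0.221) differed on average by -0.16 ± 0.10, and by -0.08 ± 0.08 with RefSeq probes. With RefSeq probes both copies of rpl5 and both of fau passed.

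The pair of rplp2b and rplp2 differed by -0.10 ± 0.05. Both genes have RefSeq probes only, so leaving out other probes could not change this difference. The gene rps26l lay next to rplp2 with no other protein-coding gene between them in the GRCz12tu annotation. Its ratio of -0.29 ± 0.02 was close to that of its copy rps26, with a difference of -0.03 ± 0.03 over all probes and of -0.13 ± 0.03 over RefSeq probes.

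Copies that have taken on other tasks were on the negative side too. The gene rpl22l1, a paralog of rpl22 with a known role in zebrafish blood formation, had -0.32, -0.35 and -0.61 (mean -0.43 ± 0.16, limma adjusted p = 0.00746). Its paralog rpl22 had -0.28, -0.21 and -0.31 (mean -0.27 ± 0.05, limma adjusted p = 0.0132), so rpl22l1 was lower on each array, by between 0.04 and 0.30 in size. The gene rpl7l1, whose yeast homolog is an assembly factor of the large subunit, had -0.14, -0.21 and -0.49 (mean -0.28 ± 0.19, limma adjusted p = 0.0461). Both l1 genes had their most negative value on replicate 3.

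**Figure D4:**
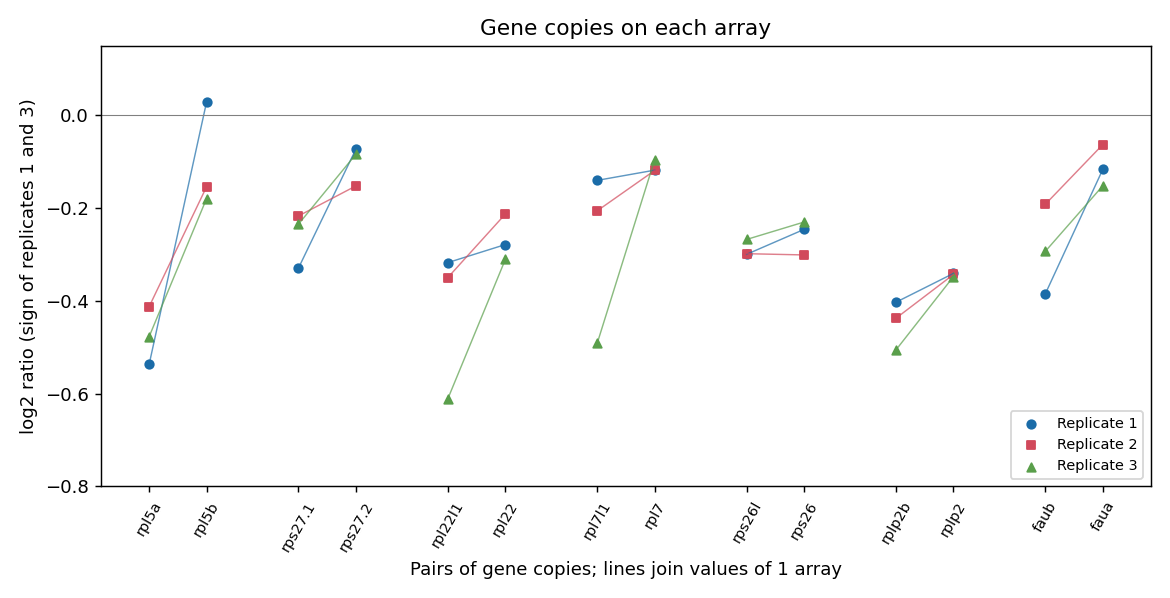
Log2 ratio of 7 pairs of gene copies on the arrays of replicates 1, 2 and 3, with lines joining the values of 1 array and the copy of lower mean on the left of each pair. The lines of rpl5a and rpl5b are the steepest on replicate 1, and those of rps26l and rps26 are nearly level.

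Other genes of the translation apparatus leaned to the negative side to differing degrees. Of all genes tested, 9.43% passed with negative and 9.92% with positive ratios. The lists of these genes were chosen with earlier results of these data known. Of 78 measured ribosome biogenesis factors, which assemble the subunits in the nucleolus, 74 had a mean below 0 (94.9%, against 50.4% of all genes). Of the 78, 35 passed with negative and 1 with positive ratios, and the list had a median ratio of -0.18. The negative count was 9 without replicate 2 and 14 with the dye term, where 3.04% and 4.32% of all genes passed on that side. Biogenesis factors that passed on the negative side included the RNA helicase gene ddx21 (-0.96 ± 0.03), nsa2 (-0.69 ± 0.09) and rcl1 (-0.53 ± 0.12). Of 65 translation factors and partners, 46 had a mean below 0 (70.8%). Of the 65, 26 passed with negative and 2 with positive ratios, and the list had a median of -0.09. The negative count was 17 without replicate 1, 11 without replicate 2 and 15 with the dye term. Of all genes, 6.54%, 3.04% and 4.32% passed on that side in these fits. The positive count of the list ran from 0 without replicate 2 (3.65% of all genes) to 4 without replicate 3 (12.1% of all genes). Translation factors and partners that passed on the negative side included naca (-0.60 ± 0.05), which guards the nascent chain at the exit tunnel. Others were the initiation factor gene eif3k (-0.59 ± 0.09) and eif2s3 (-0.45 ± 0.10). The gene rack1, whose protein binds the small subunit head, had 0.03 ± 0.05 (limma adjusted p = 0.755).

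The mitochondrial ribosomal proteins, which form a separate ribosome, had ratios around 0. Of 68 measured, 1 passed with a negative and 4 with positive ratios, and the median ratio was 0.03. With all 3 arrays these shares lie below those of all genes. The positive count was 0 without replicate 1, without replicate 2 or with the dye term. Of all genes, 7.15%, 3.65% and 5.09% passed on that side in these fits. Without replicate 3 the positive count was 11 of 68, a larger share than the 12.1% of all genes. The median of the mitochondrial list was 0.09, 0.06 and -0.02 on the 3 arrays, above that of the cytosolic ribosomal proteins on each. The difference between these lists was not tested.

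Of 19 measured genes listed for mTOR and Myc control of ribosome production, 4 (21.1%) passed with negative and 2 (10.5%) with positive ratios. The shares of all genes were 9.43% and 9.92%, so the positive share is near that of all genes. Without replicate 2, 0 passed with a positive ratio by limma, where 3.65% of all genes did. The Myc family genes mycn (-0.70 ± 0.18) and myca (-0.43 ± 0.06) passed on the negative side. The translation repressor gene eif4ebp3l (-0.60 ± 0.04) and rhebl1 (-0.32 ± 0.02) passed there too. On the positive side passed rheb (0.30 ± 0.13, limma adjusted p = 0.0184) and larp6a (0.33 ± 0.11, limma adjusted p = 0.0112). A role of larp6a in ribosome production was not checked. Another Myc family gene, mycb, did not pass (-0.15 ± 0.32, limma adjusted p = 0.420). The kinase gene mtor itself had 0.01 ± 0.07 (limma adjusted p = 0.927), and larp1, which binds the mRNAs of ribosomal proteins, had -0.12 ± 0.04 (limma adjusted p = 0.171).

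**Figure D5:**
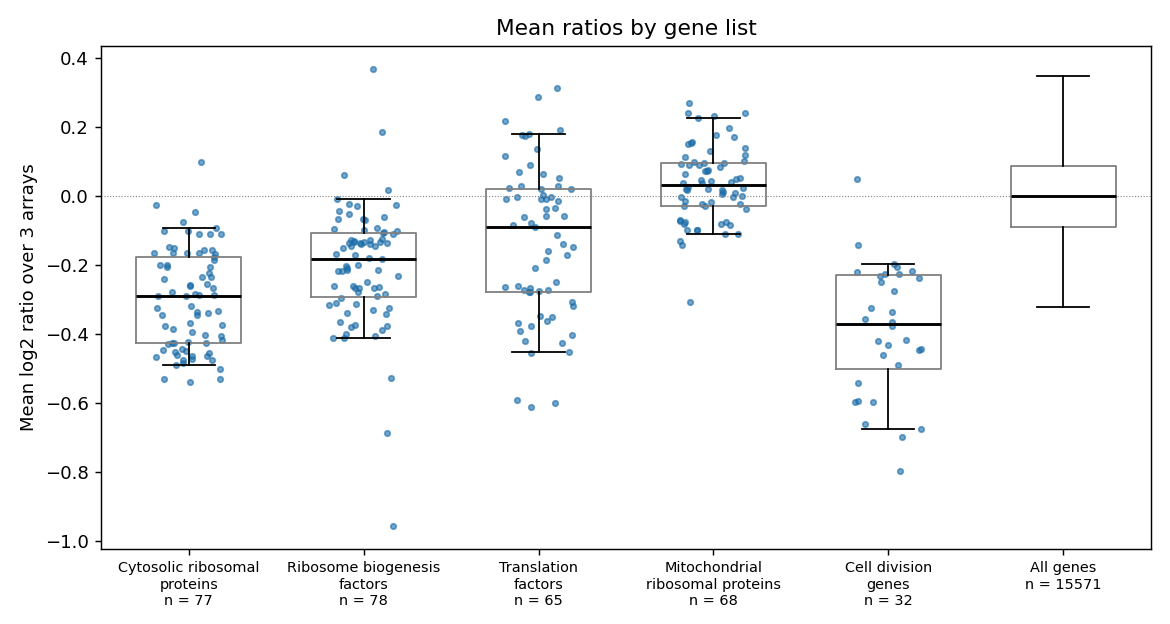
Mean log2 ratio over 3 arrays (vertical axis) by gene list, with 1 point per gene, the median as a line, boxes for the quartiles and whiskers that leave out 5% of genes at each end; all genes are shown as a box only. Cytosolic ribosomal proteins have a median of -0.29, mitochondrial ones of 0.03, and cell division genes of -0.37.

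Markers of cell types and states in the whole embryo moved at the same time. Of 32 cell division genes, 29 passed on the negative side, with a median ratio of -0.37 and medians of -0.49, -0.38 and -0.28 on the 3 arrays. The count was 17 without replicate 1, 11 without replicate 2 and 16 with the dye term. Of all genes, 9.43% passed on the negative side, and 6.54%, 3.04% and 4.32% did in those fits. On the positive side passed 11 of 16 neuronal markers (median 0.54), 10 of 11 lens markers and 8 of 13 skeletal muscle markers (median 0.25). The muscle count was 3 without replicate 2 and 5 with the dye term. Of all genes, 9.92% passed on that side, 3.65% without replicate 2 and 5.09% with the dye term. The muscle marker desma passed on the negative side instead (-0.53 ± 0.05, limma adjusted p = 0.00105). The neuronal medians ran from 0.53 to 0.67 over the arrays, the lens medians from 0.81 to 1.14 and the muscle medians from 0.20 to 0.25. Their part in the ratios of the ribosomal protein genes was not tested.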

How the data were processed

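Log ratios were made by the authors with Partek, 1 for each probe on each array, per the submitters' processing notes. These deposited values were read here as log2. The base, which channel is on top, and how background and normalisation were handled were not stated in the labels. On base 10 the median ratio of the ribosomal protein genes would be 1.95-fold, with the same test result. Of 43648 probes, 45 controls were left out. The platform annotation names a gene for 23717 probes, which were averaged per Entrez gene with no filter on low values. All 77 genes were found in the GRCz12tu gene table.

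The mean ratio was tested against 0 by limma 3.58.1 under R 4.3.3. The linear fit left 2 residual degrees of freedom, variances were moderated by eBayes, and p-values were adjusted by Benjamini-Hochberg over 15571 genes. The pool counts as 1 control sample, so the spread of untreated embryos is left out. As deposited, replicate 2 correlated with replicates 1 and 3 at r = -0.742 and -0.647, and replicates 1 and 3 with each other at r = 0.521. The test was run on simulated data first. Members, lists and tests were chosen with earlier results of these data known. Genes named were the 8 lowest that passed, gene copies, stalk, 5S particle, fusion and Diamond-Blackfan genes, the 3 of widest range, and up to 3 per comparison list; others were chosen after their values were seen. Probe sequences were not used here. Figures were made in Python 3.11.15 with matplotlib 3.10.9.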

Additional observations from a re-analysis of the deposited data

How the results depend on the processing

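No paired analysis was possible because every ratio shares 1 untreated pool and replicate numbers exist for the treated group only. The number of ribosomal protein genes that passed on the negative side was 54. It stayed within 1.5 times of that under centring, scaling, quantile normalisation, a robust prior, a minimum change of 0.1, thresholds of 0.01 and 0.10, other probe rules, the dye term and core genes only, and 0 passed on the positive side in each. Leaving out 1 replicate gave 20 to 54, with 14 to 33 in the large and 6 to 21 in the small subunit. It gave 0 to 3 of the 3 genes rpl22l1, rpl7l1 and rps26l. Over all genes it gave 473 to 1814 on the negative side, and 1041 to 3693 counting both sides. Each count was lowest without replicate 2. All fits with 1 replicate left out have 1 residual degree of freedom. With 1 replicate left out, the median ran from -0.32 to -0.30 and the subunit difference from -0.0743 to -0.0588.

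A threshold of 0.01 left 22 large subunit genes. Over all genes it left 655 on the negative side and 1434 counting both sides. The dye term left 13 small subunit genes and 1 of the 3 genes rpl22l1, rpl7l1 and rps26l. Over all genes it left 672 on the negative side and 1465 counting both sides, and the minimum change left 758 and 1639. The median was -0.33 with 1 probe per gene (lowest identifier), -0.33 over single probes and -0.34 with RefSeq probes, and the subunit difference in these was 0.00094, -0.0487 and -0.0051, and -0.0843 with the median over probes. Ratios changed sign for rplp1 with the dye term (0.0569) and, at -0.193 to 0.0839, on leaving out 1 replicate, for rpl11 likewise (-0.0771 to 0.185), and at single probes of faua (0.11), rpl5b (0.13), rpl7 (0.0088), rps24 (0.0824 and 0.106), rps27.2 (0.0536) and rps27a (0.101). Probes above 0 were also found for rps14 (0.12), rps28 (0.08), rps15 (0.03) and rpl10a (0.02), and rps16 had 0.0044 without replicate 2. Of these 13 genes rpl10a alone passed with all probes. The cause was not tested. Signal over background is unknown.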
